A study of Mus musculus with 46 samples.

Results

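The data described here are the poly(A) RNA of Ctu1-deficient mouse cells that were treated for 2 h with the mTOR kinase inhibitor torin 1 or with its solvent, DMSO. They comprise 6 libraries, replicates 1 to 3 of each treatment, out of 46 libraries in the series, and 9857 of the 10464 gene symbols that its tables hold. All libraries come from EPP2, a murine pancreatic cancer line, of which 1 clone was used, with Cas9 under the control of doxycycline. Guide RNAs against Ctu1 were expressed from these cells, and 300 ng/ml doxycycline was given for 4 days before the experiment, which gives the Ctu1KO group. Torin 1 was used at 300 nM. Controls in the study carried guide RNAs against non-coding regions or received no doxycycline, and the sources used here do not state which applies to the control libraries. RNA and ribosome footprints were taken from the same lysates, and it is not clear from the methods whether the RNA aliquot was removed before or after the RNase digestion. Treatment groups were taken from the labels. Replicates 4 to 6 of these groups were kept out, because transcript levels in several of their RNA libraries go against the treatment labels, so that the choice of replicates rests in part on measured values. For ribosome profiling the methods give 2 independent replicates, made on consecutive days, while the study's figure legends name a larger number of independent experiments for footprints and the labels number more libraries, without saying which share a day or a culture. For its RNA sequencing of knockout against control cells, the study names 2 independent experiments, or 2 biological replicates. These sources do not settle whether the 3 libraries a group are 3 independent cultures, and the p-values measure the spread between these libraries, which may in part be technical.

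mTOR is a kinase that couples amino acids, growth factors and energy to cell growth. As mTORC1 it promotes translation and ribosome production and restrains autophagy and lysosome biogenesis, and as mTORC2 it activates Akt, which keeps FoxO transcription factors out of the nucleus. Torin 1 blocks the kinase in both complexes. Ctu1 is the catalytic subunit of the cytosolic thiouridylase, which together with Ctu2 adds sulfur to the wobble uridine (U34) of the transfer RNAs for lysine, glutamine and glutamate, after the Elongator complex has modified the same base.

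The guide RNAs define the genotype and are therefore shown. The study used pairs of guides, and each pair cuts Ctu1 at 2 positions. All 4 guides have an exact match in the genome, inside the coding part of exon 2 of Ctu1 (GRCm38, chr7:43672016-43678298, plus strand, GENCODE M21). They are written 5′ to 3′ in lower case, with the PAM, the adjacent triplet that Cas9 requires, read from RefSeq GRCm38.p6 in capitals. Pair 1 matches chr7:43675332-43675349 and chr7:43675475-43675492, both on the minus strand. Pair 2 matches chr7:43675314-43675332 on the minus strand and chr7:43675484-43675503 on the plus strand.
Pair 1, guide 1: gcacgtgtgccagcactgTGG
Pair 1, guide 2: gtaggccacgatggtgagCGG
Pair 2, guide 1: gtggagtccttgccaccagAGG
Pair 2, guide 2: gtggcctacgaagatctcttCGG
The expected cut sites lie 143 bases apart for pair 1 and 183 bases apart for pair 2, both within one exon of a gene that the tables count as a whole. Which pair the sequenced cells carried is not given in the sources used here. Ctu1 is listed in the DMSO tables only. There it had 4.56, 4.36 and 4.95 CPM (counts scaled by library size to a common total, here without a further factor) in Ctu1KO replicates 1 to 3 and 4.75, 4.53 and 4.56 CPM in the control libraries of the same numbers. The groups overlapped (two-sided exact permutation test, p = 0.9, where 0.1 is the smallest p that 3 against 3 allows). Whole-gene counts thus do not check the genotype, which rests on the labels.

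Read counts summed to between 129881946 and 253491226 in the DMSO libraries and to between 131423344 and 232556518 in the torin 1 libraries (two-sided exact permutation test, p = 0.7). In both groups replicate 3 was the deepest. All RNA counts were even numbers. Of the marker genes of cell types, 6 of 13 ductal and 12 of 15 mesenchymal genes were listed in both tables, as were 1 of 9 endothelial genes, 0 of 13 immune genes and 0 of 14 acinar and endocrine genes. The listed ductal genes included Krt8, Krt18, Krt19 and Sox9, whereas Epcam and Cdh1 were not among them. The tables hold only genes with at least 100 footprints in some library, and the absence of a marker is therefore no measure of its transcript. Transcripts encoded by mitochondrial DNA took between 0.78% and 1.66% of the counts, with overlapping groups. Within each replicate number the share was lower with torin 1 (1.08% and 1%, 0.89% and 0.78%, and 1.66% and 1.6%), which was not tested.

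Torin 1 changed 794 of 9619 transcripts (8.25%) in Ctu1KO cells, of which 359 (3.73%) were higher and 435 (4.52%) were lower than with DMSO (adjusted p under 0.05, tested where the mean count was 10 or more). Among the transcripts that rose, the median log2 change was 0.63, and among those that fell it was -0.60, while the median of all genes was 0.00. A change of at least 1 on the log2 scale was seen in 56 rising and 34 falling transcripts. None of the 794 had overlapping groups, a property that 30.6% of all genes tested shared. Same-numbered libraries deviated together from their group means, and with the replicate number as a term in the model 3378 transcripts passed (35.1%), of which 1641 (17.1%) were higher and 1737 (18.1%) lower, including every one of the 794. The number without this term depended on single libraries. It was 123 without DMSO replicate 1, 125 without DMSO replicate 2, 311 without DMSO replicate 3, 458 without torin 1 replicate 1, 243 without torin 1 replicate 2 and 1123 without torin 1 replicate 3. When library totals replaced TMM scaling, the median of all genes moved to -0.06 and the split became 289 higher and 650 lower, so that 30.8% of the calls in place of 45.2% were higher.

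The transcripts that rose most are described first. CPM values of these and later genes are TMM-scaled. Ccng2, encoding cyclin G2, an atypical cyclin that restrains proliferation, had 6.77, 6.29 and 7.31 CPM with DMSO and 46.0, 41.7 and 65.3 CPM with torin 1 in replicates 1 to 3. This was the largest rise of all named genes, 7.51-fold (log2 change 2.91 ± 0.18 SE, adjusted p = 0.00072). Crebrf, whose product promotes the degradation of the transcription factor CREB3, went from 5.99, 4.76 and 5.03 CPM to 30.7, 31.6 and 34.7 CPM, or 6.15-fold (log2 change 2.62 ± 0.12, adjusted p = 0.00036). For both genes every torin 1 library lay far above every DMSO library. Klhl24, an adaptor of cullin ubiquitin ligases, had between 9.37 and 10.8 CPM with DMSO and between 41.7 and 52.3 CPM with torin 1 (log2 change 2.25 ± 0.12, adjusted p = 0.00036). Hbp1, a transcriptional repressor of cell cycle genes, rose 4.00-fold, from 39.5, 36.1 and 33.6 CPM to 138, 140 and 160 CPM (adjusted p = 0.00036). Hbp1 and Rin2 were the most abundant of the 15 rising genes and had narrow groups in both conditions. Rin2, an effector of the endosomal GTPase Rab5, went from 40.3, 40.1 and 44.1 CPM to 161, 142 and 157 CPM (log2 change 1.89 ± 0.09). Tcim, a regulator of Wnt signalling, rose 4.48-fold to between 27 and 29.2 CPM. Pnrc1, a coactivator of nuclear receptors, rose 4.01-fold, and Pim1, a survival kinase, rose 3.95-fold. The other 7 of the 15 were Fam110c, Cebpd, Fam214a, AI593442, Rasgef1b, Dhrs3 and Rgs2, with log2 changes between 1.58 and 1.80. They include the transcription factor C/EBP delta (Cebpd), the retinaldehyde reductase Dhrs3 and the inhibitor of G protein signalling Rgs2. Without DMSO replicate 1 the calls of Cebpd, AI593442 and Dhrs3 were lost (adjusted p = 0.0577, 0.0577 and 0.0745), and likewise without DMSO replicate 2 (adjusted p = 0.0503, 0.0558 and 0.0713).

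**Figure D1:**
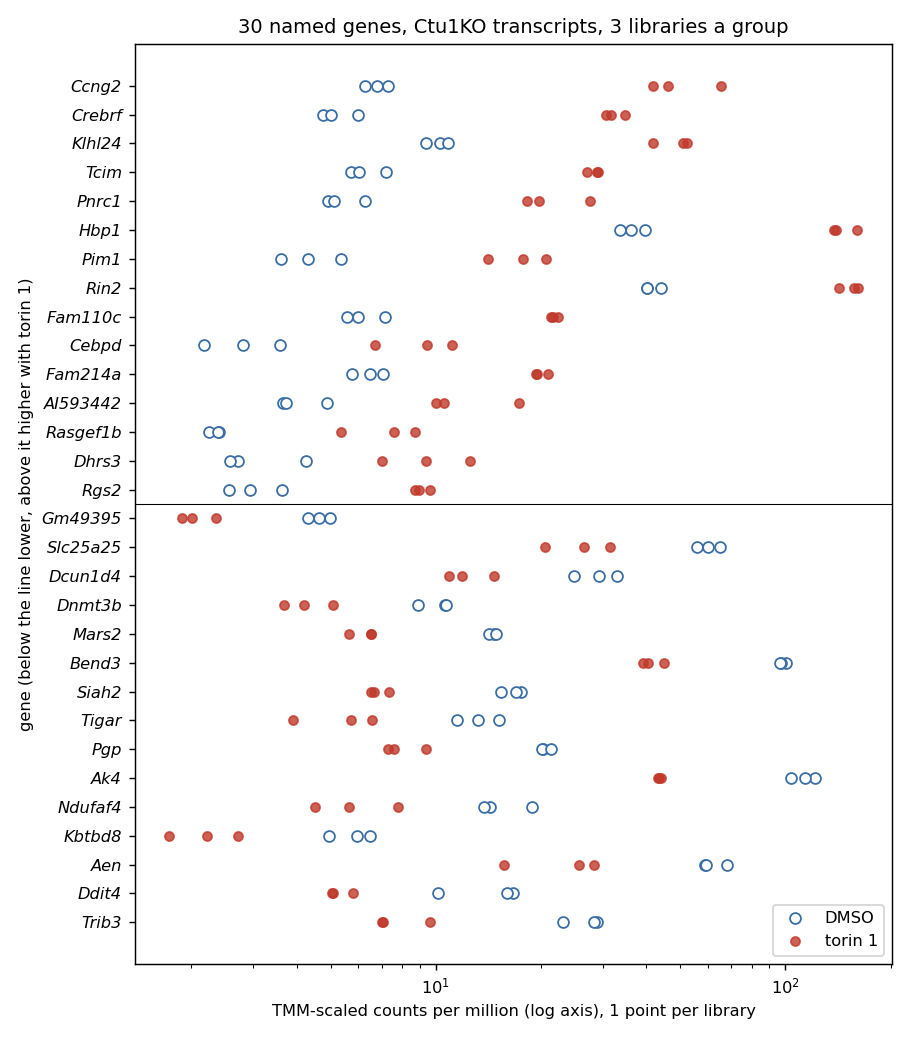
Each point is 1 library and gives the TMM-scaled CPM (logarithmic x axis) of the 15 rising genes (above the line) and the 15 falling genes (below it) with the largest changes in Ctu1KO transcripts, with DMSO as open and torin 1 as filled circles (3 libraries each). In all 30 genes the groups are apart, which was a condition of their choice, and changes run from 7.51-fold higher for Ccng2 to 3.4-fold lower for Trib3.

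The transcripts that fell most are described next. Trib3, a pseudokinase that is induced by ATF4 and binds Akt, fell from 28.9, 23.2 and 28.3 CPM to 7.06, 9.61 and 7 CPM. It was 3.4-fold lower (log2 change -1.76 ± 0.16, adjusted p = 0.0030). Ddit4, also known as REDD1 and an inhibitor of mTORC1, fell from 16.7, 10.1 and 16.0 CPM to 5.04, 5.08 and 5.80 CPM (log2 change -1.43 ± 0.20, adjusted p = 0.0095). The DMSO libraries of Ddit4 were spread more widely than those with torin 1, and all lay above them. Ak4, a mitochondrial adenylate kinase, fell from 122, 114 and 104 CPM to 44.2, 43.2 and 43.4 CPM (log2 change -1.38 ± 0.09, adjusted p = 0.00072). Bend3, a chromatin-bound repressor, fell 2.36-fold from between 96.8 and 100 CPM. The torin 1 libraries of Ak4 lay within 1 CPM of each other. Tigar and Pgp, which encode phosphatases acting on fructose 2,6-bisphosphate and on phosphoglycolate, fell 2.46-fold and 2.54-fold. Aen, a nuclease induced by p53, went from 58.7, 59.1 and 68.2 CPM to 15.6, 25.7 and 28.4 CPM. Genes of mitochondrial proteins were Ndufaf4, an assembly factor of complex I (2.61-fold lower), Mars2, the methionyl-tRNA synthetase of mitochondria (2.34-fold lower), and Slc25a25, a carrier of adenine nucleotides (2.31-fold lower). The others were Kbtbd8, Siah2, Dnmt3b, Dcun1d4 and Gm49395, with log2 changes between -1.38 and -1.16. Calls were lost without DMSO replicate 1 for Aen, Kbtbd8 and Ndufaf4 (adjusted p = 0.0518, 0.0546 and 0.0545), without DMSO replicate 2 for Aen, Ndufaf4, Tigar and Gm49395 (adjusted p = 0.0512, 0.0511, 0.0573 and 0.0503), and without torin 1 replicate 2 for Aen, Ddit4 and Ndufaf4 (adjusted p = 0.0502, 0.0511 and 0.0683). The other 21 of the 30 genes passed without any 1 library.

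The upstream regions of genes from both groups are shown because they hold motifs of factors that act downstream of mTOR. Short motifs were searched on both strands of the 250 bases before each annotated start (RefSeq, GRCm38.p6), and matching regions were found for 7712 of the 9619 genes tested. The motifs were the FoxO element TGTTTAC, the E-box CACGTG of Myc, TFEB and related factors, its extension TCACGTGA that is bound by TFEB and TFE3, the ATF4 element TGATGNAA, the sterol element TCACNCCAC and the cAMP element TGACGTCA. Capitals mark the matches. Of the 30 genes with the largest changes, 25 had a region, and 8 of these held a match to any motif. The 4 genes shown are the 3 rising and the 1 falling gene with the largest changes whose region holds a match. Crebrf (chr17:26715400-26715649, plus strand) has TCACGTGA and a further E-box, Hbp1 (chr12:31950246-31950495, minus strand) has a FoxO element, Pim1 (chr17:29492835-29493084, plus strand) has an E-box beside a FoxO element, and Aen (chr7:78895808-78896057, plus strand) has an E-box. An annotated start can lie within a gene. By the GENCODE M21 bounds, the region of Crebrf lies before the gene, those of Hbp1 and Pim1 lie inside it, and that of Aen reaches into it.
Crebrf: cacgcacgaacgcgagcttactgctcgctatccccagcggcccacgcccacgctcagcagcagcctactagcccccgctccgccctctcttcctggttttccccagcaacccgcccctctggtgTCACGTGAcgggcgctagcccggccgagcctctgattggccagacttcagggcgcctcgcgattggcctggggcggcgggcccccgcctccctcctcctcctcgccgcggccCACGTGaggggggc
Hbp1: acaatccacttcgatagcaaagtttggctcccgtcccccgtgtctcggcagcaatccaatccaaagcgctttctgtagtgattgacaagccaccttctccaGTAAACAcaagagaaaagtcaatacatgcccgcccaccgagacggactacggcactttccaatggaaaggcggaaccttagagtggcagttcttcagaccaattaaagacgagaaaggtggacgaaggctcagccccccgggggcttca
Pim1: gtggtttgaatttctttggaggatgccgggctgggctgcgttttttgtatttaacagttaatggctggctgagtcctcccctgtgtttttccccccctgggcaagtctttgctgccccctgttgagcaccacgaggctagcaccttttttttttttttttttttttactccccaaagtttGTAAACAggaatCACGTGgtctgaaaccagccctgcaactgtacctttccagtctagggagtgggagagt
Aen: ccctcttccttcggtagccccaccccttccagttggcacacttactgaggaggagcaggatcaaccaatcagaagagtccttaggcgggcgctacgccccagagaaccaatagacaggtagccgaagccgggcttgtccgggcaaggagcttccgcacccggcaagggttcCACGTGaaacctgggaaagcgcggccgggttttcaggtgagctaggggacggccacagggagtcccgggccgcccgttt
Over all genes with a region, 10.7% held an E-box, against 18.8% of the rising and 10.2% of the falling genes. The extended form, each match of which is also an E-box, stood in 2.18% of all, 5.21% of rising and 0.826% of falling genes. FoxO elements were found in 2.71% of all, 4.51% of rising and 3.58% of falling genes, and ATF4 elements in 2.28%, 4.51% and 3.31%. The sterol element was present in 1.21% of all, 0.347% of rising and 1.1% of falling genes, and the cAMP element in 3.28%, 4.17% and 3.31%. Genes had a mean of 1.30 such regions, 1.34 for the rising and 1.29 for the falling genes. These shares describe letters in a window and were not tested.

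Growth brakes and FoxO-type targets had the highest median of the lists with at least 10 genes tested. The lists were written with earlier results of these data known, so this rank and the counts rest in part on the choice of members. Of 26 genes measured, 10 rose and 1 fell, beside 3.73% and 4.52% of all genes, with a median log2 change of 0.65. Between 6 and 13 passed when 1 library was left out. Beside Ccng2, Klhl24 and Hbp1, the proapoptotic gene Bcl2l11 (Bim) rose from 45.2, 48.1 and 39.4 CPM to 82.8, 99.8 and 103 CPM (log2 change 1.11 ± 0.12, adjusted p = 0.0048). The falling gene was Ddit4. Cdkn1b, encoding the CDK inhibitor p27, rose by 0.83 ± 0.16 on the log2 scale (adjusted p = 0.023), and its call was lost without DMSO replicate 1, DMSO replicate 2 or torin 1 replicate 1 (adjusted p between 0.0579 and 0.0979). In the fit with the replicate term 17 members rose and 1 fell, beside 17.1% and 18.1% of all genes. Genes of receptor and insulin signalling followed in part, with 3 of 15 higher and 0 lower (5 and 0 with the replicate term), beside 3.73% of all genes higher (17.1%). Irs2, an adaptor of the insulin receptor, had between 6.34 and 6.82 CPM with DMSO and between 15.9 and 17.4 CPM with torin 1 (log2 change 1.32 ± 0.09, adjusted p = 0.0011). Irs1 rose by 0.76 ± 0.12, and Rictor, the defining subunit of mTORC2, by 0.59 ± 0.10. Without DMSO replicate 1, DMSO replicate 2 or torin 1 replicate 2, Irs1 and Rictor did not pass (adjusted p between 0.0503 and 0.0646), and Rictor also failed without torin 1 replicate 1 (adjusted p = 0.0516).

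Of 32 genes of the mTOR pathway itself, 3 rose and 1 fell, beside 3.73% and 4.52% of all genes, and the median was 0.03. Between 1 and 6 passed when 1 library was left out. Fnip1, a partner of folliculin, rose from 21.3, 23.6 and 18.0 CPM to 37.1, 40.7 and 42.3 CPM. Tsc1, a brake on mTORC1, rose by 0.66 ± 0.09, and Wdr59, a subunit of the GATOR2 complex, by 0.45 ± 0.07 on the log2 scale. Larp1, which binds and represses TOP mRNAs when mTORC1 is inactive, was the only member that fell, from 468, 502 and 455 CPM to 294, 362 and 327 CPM (log2 change -0.54 ± 0.10, adjusted p = 0.021). Larp1 lost its call without any 1 of the 3 DMSO libraries (adjusted p = 0.0879, 0.104 and 0.0599). Tsc1 and Wdr59 did so without DMSO replicate 1 (adjusted p = 0.0529 and 0.0873) and DMSO replicate 2 (adjusted p = 0.0503 and 0.0623), and Wdr59 also without DMSO replicate 3 (adjusted p = 0.0599) and torin 1 replicate 2 (adjusted p = 0.0584). With the replicate term 6 members rose and 5 fell, beside 17.1% and 18.1% of all genes.

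Of 37 genes of autophagy measured, 10 rose and 1 fell, beside 3.73% and 4.52% of all genes, and the median was 0.22. Atg14, a subunit of the lipid kinase complex that starts autophagosomes, went from 11.9, 11.3 and 11.8 CPM to 27.3, 25.2 and 30.6 CPM (log2 change 1.25 ± 0.10, adjusted p = 0.0020). The cargo receptor gene Sqstm1 (p62) had 544, 568 and 533 CPM with DMSO and 887, 979 and 951 CPM with torin 1. Rb1cc1, the scaffold of the initiating kinase complex, rose by 0.76 ± 0.11 and the receptor gene Nbr1 by 0.67 ± 0.13. Atg16l1, which guides the lipidation of LC3, fell from 63.5, 66.1 and 70.7 CPM to 31.3, 37.3 and 39.5 CPM and was the only falling member. Rb1cc1 lost its call without DMSO replicate 2 (adjusted p = 0.0554), and Nbr1 without 4 of the 6 libraries (adjusted p between 0.0536 and 0.0845). Leaving out 1 library in turn left between 3 and 12 members called, and with the replicate term 19 rose and 3 fell, beside 17.1% and 18.1% of all genes.

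Lysosomal genes and the proton pump had a median of 0.27, and 40 of 43 log2 changes were above 0. Of the 43, 2 passed, both higher, beside 3.73% of all genes, and between 1 and 6 passed when 1 library was left out. Gla, the lysosomal alpha-galactosidase, rose from 17.5, 17.8 and 16.1 CPM to 27.9, 27.8 and 28 CPM (log2 change 0.70 ± 0.08, adjusted p = 0.0069), and the pump subunit gene Atp6v1b2 by 0.55 ± 0.09 (adjusted p = 0.016; 0.0843 and 0.0806 without DMSO replicate 1 or 2). With the replicate term 24 members rose and 1 fell, beside 17.1% and 18.1% of all genes.

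Genes of ribosome production formed the longest list. Of its 80 genes, most of them for nucleolar factors and RNA polymerase I, 11 fell and 0 rose, beside 4.52% and 3.73% of all genes, with 71 log2 changes below 0 and a median of -0.255. Rrs1, needed for the assembly of the large subunit, went from 62.8, 60.3 and 69.1 CPM to 26.1, 33.3 and 35.7 CPM (log2 change -1.02 ± 0.13, adjusted p = 0.0078). Rrp1b, another nucleolar factor, fell from 71.6, 74.6 and 76.0 CPM to 35.1, 42.0 and 39.4 CPM. Mphosph10, of the small subunit processome, and Polr3g, a subunit of RNA polymerase III, fell by 0.99 and 0.87 on the log2 scale. Both lost the call without DMSO replicates 1, 2 or 3 or torin 1 replicate 2 (adjusted p between 0.0541 and 0.0752). Between 2 and 25 members passed when 1 library was left out, and with the replicate term 45 fell and 1 rose, beside 18.1% and 17.1% of all genes.

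Of the ribosomal protein transcripts, 1 passed. The median log2 change was 0.17 for 46 genes of the large and 0.15 for 32 genes of the small subunit, and 77 of the 78 values were above 0. The calls were 1 of 46 and 0 of 32, and with the replicate term 24 and 12, all higher, beside 3.73% of all genes higher and 17.1% with that term. Scaling by library totals lowered the medians to 0.11 and 0.09. Rpl3, the member that passed, had 1239, 1253 and 1312 CPM with DMSO and 1645, 1623 and 1711 CPM with torin 1 (log2 change 0.39 ± 0.07, adjusted p = 0.021), and it lost the call in 5 of the 6 fits without 1 library (adjusted p up to 0.117). Of Rpl29, Rps25 and Rps3, none passed (log2 changes 0.11, 0.16 and 0.15). Rps20 and Rps24, the members of the small subunit with the lowest p, had log2 changes of 0.23 and 0.23 (adjusted p = 0.11 and 0.12; 0.013 and 0.015 with the replicate term). Translation factors and other mRNAs with a TOP motif had 3 of 29 higher (15 higher and 1 lower with the replicate term), Eif4b, Eef2 and Eef1a1. Eef2, the elongation factor that moves the ribosome along, went from 2031, 1999 and 2300 CPM to 2979, 2941 and 3148 CPM. Each of the 3 lost the call without DMSO replicate 1 or 2 or torin 1 replicate 2 (adjusted p between 0.0561 and 0.148). Many ribosomal protein genes have processed pseudogenes that can share reads with them, and their counts are uncertain to that extent.

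The cell cycle lists stand beside 3.73% of all genes higher and 4.52% lower, or 17.1% and 18.1% with the replicate term. Among 25 G1 cyclins, kinases and their inhibitors, 2 rose and 4 fell (4 and 11 with the replicate term), with a median of 0.01. Ccnd2, encoding cyclin D2, fell from 300, 276 and 257 CPM to 137, 148 and 112 CPM (log2 change -1.07 ± 0.12, adjusted p = 0.0063). Ccne1 (cyclin E1) and Cdc25a, an activating phosphatase of the cyclin-dependent kinases, fell by 1.04 and 1.01 on the log2 scale, and Skp2, which targets p27 for degradation, by 0.71. The rising members were Cdkn1b and Cdkn2b, both inhibitors of cyclin-dependent kinases. Cdkn2b rose by 0.72 ± 0.09 (adjusted p = 0.007). Of the mitotic genes, 3 of 45 rose and 0 fell (14 and 0 with the replicate term): Cenpe, a kinetochore motor, Ndc80, a microtubule-binding kinetochore protein, and Cdc25b, with log2 changes of 0.75, 0.69 and 0.42. Of 46 genes of DNA replication 0 passed (4 higher and 10 lower with the replicate term), and Cdt1 and Pold3 had the lowest p, with log2 changes of 0.42 and 0.28 (adjusted p = 0.088 and 0.090; 0.0014 and 0.018 with that term). In the Myc network, Mnt, an antagonist of Myc, rose from 26.2, 29.6 and 22.0 CPM to 57.0, 64.0 and 50.2 CPM (log2 change 1.14 ± 0.14, adjusted p = 0.0074), and Ccnd2 and Mlxip fell. These were the calls among 14 genes of that network, of which 3 rose and 7 fell with the replicate term. Cenpe was lost without torin 1 replicate 2 (adjusted p = 0.0517), while Skp2, Ndc80, Cdc25b and Mlxip were lost without 4 or 5 of the libraries (adjusted p between 0.0541 and 0.129).

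Of 19 stress effectors under ATF4, 5 fell and 1 rose, beside 4.52% and 3.73% of all genes, with a median of -0.21 (-0.06 in control). The replicate term gave 9 lower and 2 higher, beside 18.1% and 17.1% of all genes, and between 3 and 7 passed when 1 library was left out. Atf4, the transcription factor itself, went from 368, 338 and 332 CPM to 198, 211 and 194 CPM (log2 change -0.78 ± 0.08, adjusted p = 0.0048). Ddit3 (CHOP) fell by 0.77 ± 0.12 and Herpud1, a component of ER-associated degradation, by 0.77 ± 0.15. The cytokine gene Gdf15 was near the floor, with 0.15, 0.17 and 0.14 CPM and 0.029, 0.031 and 0.053 CPM, and did not pass (log2 change -1.96 ± 0.50, adjusted p = 0.058; 0.028 with the replicate term). The rising member was Ndrg1, with 46.7, 50.8 and 48.7 CPM before and 90.4, 97.3 and 96.8 CPM after treatment. Of 14 amino acid transporters 0 passed (4 lower with the replicate term), and Slc7a6 and Slc38a1, with the lowest p, had log2 changes of -0.51 and -0.30 (adjusted p = 0.065 and 0.30; 0.00051 and 0.0057 with the replicate term). Cytosolic aminoacyl-tRNA synthetases had 2 of 19 higher, Qars and Vars (log2 changes 0.46 and 0.34), and 3 higher and 3 lower with the replicate term. Of the 19 log2 changes 10 were below 0, with a median of -0.04. Ddit3, Herpud1, Qars and Vars lost their calls without 3 to 5 of the libraries (adjusted p between 0.0505 and 0.147).

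The metabolic lists stand beside 3.73% of all genes higher and 4.52% lower, or 17.1% and 18.1% with the replicate term. Of 26 genes of cholesterol synthesis and uptake 4 fell and 0 rose, with a median of -0.20. They included Hmgcs1, the synthase that makes HMG-CoA, Hsd17b7 and Insig1, with log2 changes between -0.57 and -0.31, and each of these lost the call without at least 4 of the 6 libraries (adjusted p between 0.0528 and 0.219). The replicate term gave 13 lower and 0 higher. Of 18 genes of fatty acid synthesis 2 rose and 0 fell (3 and 5 with the replicate term). Lpin1, a phosphatidate phosphatase whose nuclear form opposes SREBP, went from 40.5, 40.2 and 48.6 CPM to 91.1, 99.5 and 110 CPM (log2 change 1.22 ± 0.11, adjusted p = 0.0032). Srebf1 rose by 0.47 ± 0.09 (lost without 5 libraries, adjusted p between 0.055 and 0.105). In the list of glycolysis and hypoxia-type targets, 3 of 28 fell and 0 rose (7 lower and 5 higher with the replicate term). Pfkfb3, which makes the glycolytic activator fructose 2,6-bisphosphate, fell from 37.1, 44.1 and 47.0 CPM to 16.4, 23.8 and 19.4 CPM. Hk2 (hexokinase 2) fell by 0.82 ± 0.19 and was lost without any 1 of the 6 libraries (adjusted p between 0.0522 and 0.156), Egln1 (log2 change -0.45) without 5 of them and Pfkfb3 without DMSO replicate 2 (adjusted p = 0.0522). None of 31 genes of pentose phosphate and nucleotide synthesis passed (4 higher and 7 lower with the replicate term), and Paics and Tkt were nearest, with log2 changes of 0.30 and 0.34 (adjusted p = 0.051 and 0.053; 0.0042 and 0.0026 with that term).

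Immediate-early genes and feedback regulators of MAPK signalling had 8 higher and 1 lower of 41, beside 3.73% and 4.52% of all genes, with a median of 0.10. Dusp10, a phosphatase of stress kinases, went from 3.66, 2.61 and 4.33 CPM to 8.98, 7.65 and 8.73 CPM (log2 change 1.26 ± 0.19, adjusted p = 0.013). The transcription factor gene Klf4 went from 28.6, 26.4 and 40.6 CPM to 70.1, 71.9 and 84.2 CPM. Dusp4, a phosphatase of ERK, rose by 0.96 ± 0.12 and the EGF receptor ligand gene Areg by 0.86 ± 0.20, while Dusp7 fell by 0.49 ± 0.09. Without DMSO replicate 1 all 5 lost the call (adjusted p between 0.0505 and 0.126), and between 0 and 9 members of the list passed when 1 library was left out. With the replicate term 19 rose and 9 fell, beside 17.1% and 18.1% of all genes.

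Of 13 genes of enzymes that modify U34, 0 rose and 1 fell, beside 3.73% and 4.52% of all genes (0 and 3 with the replicate term, beside 17.1% and 18.1%), with a median of -0.05. Kti12, an accessory factor of Elongator, fell from 38.1, 35.8 and 42.0 CPM to 24.7, 25.1 and 27.1 CPM (log2 change -0.59 ± 0.09, adjusted p = 0.013), and lost the call without DMSO replicate 1, DMSO replicate 2 or torin 1 replicate 2 (adjusted p = 0.0671, 0.0522 and 0.0613). Ctu2, the partner of Ctu1, had 51.0, 50.3 and 55.0 CPM with DMSO and 50.4, 55.0 and 50.8 CPM with torin 1. Log2 changes of Elp2 to Elp5 lay between -0.07 and 0.12, and that of Elp6 was -0.25 (adjusted p = 0.17; 0.029 with the replicate term).

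The remaining lists are given by their counts, beside the 8.25% of all genes that were called, or 35.1% with the replicate term. Among 39 genes of TGF-beta and Hippo signalling and matrix, 1 rose and 3 fell (Ccn1, Ajuba and Amotl2), of which Ccn1, a target of YAP, fell by 0.96 ± 0.17. The balance of this list turned with the replicate term, under which 15 rose and 6 fell, and 29 of the 39 log2 changes were above 0 (median 0.23). Between 0 and 12 of its members passed when 1 library was left out. Among 14 p53 targets, Polk rose and Aen, Tigar and Zmat3 fell. Mitochondrial ribosomal proteins had 2 of 77 lower (Mrpl50 and Mrps23), the proteasome 1 of 40 lower (Psme3), antioxidant enzymes 1 of 19 lower (Gclc), heat shock proteins 1 of 21 higher (Hsp90ab1), and ER chaperones 1 higher (Dnajb9) and 1 lower (Herpud1) of 25. In the fit with the replicate term, 14 mitochondrial ribosomal protein genes fell and 0 rose, 2 p53 targets rose and 5 fell, 6 ER chaperone genes rose and 1 fell, 3 heat shock genes rose and 2 fell, 1 proteasome gene rose and 3 fell, and 2 antioxidant genes fell. Of the genes named here, Aen, Tigar and Ccn1 lost the call without 1 to 3 libraries and the others without 3 to 5 (adjusted p between 0.0502 and 0.176). In 73 nuclear-encoded genes of the respiratory chain, 18 interferon-stimulated genes, 3 histone genes and 12 mitochondrially encoded genes the count was 0 in edgeR. With the replicate term it was 3, 5, 0 and 0.

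Markers of the cells also moved. Of the 6 ductal genes listed, 3 rose (5 with the replicate term), beside 3.73% of all genes (17.1%), and all 6 log2 changes were above 0. The called genes were Sox9, a transcription factor of ductal cells (log2 change 1.07 ± 0.18), and the keratin genes Krt18 (0.81 ± 0.14) and Krt8 (0.55 ± 0.09). The summed level of the 6 was between 2321 and 3026 CPM with DMSO and between 2800 and 4626 CPM with torin 1. The groups overlapped, while within each replicate number the sum was higher with torin 1 (3026 and 4626, 2896 and 3541, and 2321 and 2800 CPM). Vim, encoding vimentin, rose from 2906, 2953 and 3280 CPM to 4865, 4846 and 5641 CPM (log2 change 0.75 ± 0.09, adjusted p = 0.0076). The sum of the 12 mesenchymal genes was between 3761 and 3905 CPM with DMSO and between 5850 and 6238 CPM with torin 1, and did not overlap. Vim alone made up most of this sum in every library, so that the sum and its rise mainly restate Vim. Of the 12, 1 passed (6 with the replicate term, all higher), and all 12 log2 changes were above 0, with a median of 0.29. Flt1, the only endothelial marker listed, had between 19.7 and 39.4 CPM with DMSO and between 35.5 and 81.1 CPM with torin 1 (adjusted p = 0.15; 5.7e-05 with the replicate term). The libraries come from 1 cultured clone treated for 2 h, not from a mixed tissue. In bulk RNA, more cells that express a marker and more RNA per cell cannot be told apart. The part of these genes in the other results was not tested. Sox9 and Krt18 lost the call without DMSO replicate 1 (adjusted p = 0.0719 and 0.071) and torin 1 replicate 2 (adjusted p = 0.0633 and 0.0743), Krt8 without 4 libraries (adjusted p between 0.0536 and 0.0868) and Vim without DMSO replicate 2 (adjusted p = 0.0503).

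**Figure D2:**
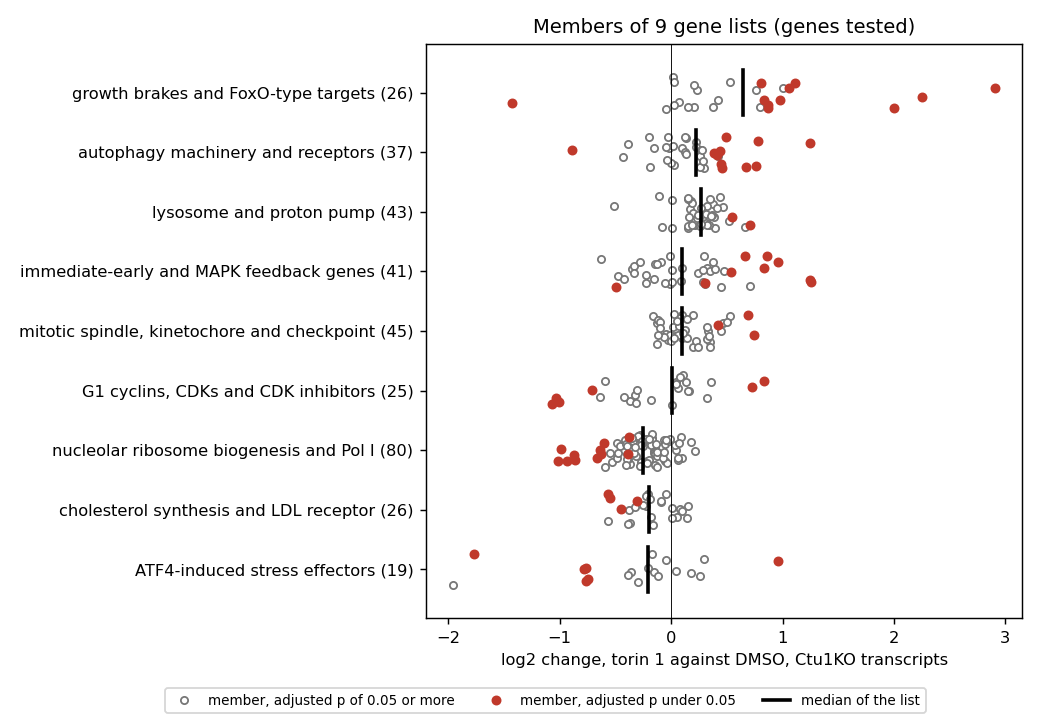
Each point is the log2 change with torin 1 (x axis) of 1 gene in Ctu1KO transcripts, in rows for 9 gene lists with the number of genes tested in brackets. Filled points have an adjusted p under 0.05 and black bars are list medians, which run from 0.65 for growth brakes to -0.255 for nucleolar genes.

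The control libraries of the same replicate numbers show whether the response depends on the genotype. In a fit over all 12 libraries, torin 1 changed 1138 of 9616 transcripts in control (11.8%), of which 497 (5.17%) were higher and 641 (6.67%) lower. All 794 transcripts called in Ctu1KO had the same direction in control, and 656 were also called there, which is 82.6% of the Ctu1KO calls and 57.6% of the control calls. The Ctu1KO calls come from the fit of 6 libraries and the control calls from that of 12, so that both shares compare fits of unequal size. Log2 changes of both genotypes had a Pearson correlation of 0.87 over 9610 genes, which are not independent replicates and share their libraries within each genotype. The median difference of the log2 changes, Ctu1KO minus control, was 0.14 over the transcripts that rose and -0.10 over those that fell in Ctu1KO, against 0.01 over all genes. Since the calls were made on the Ctu1KO changes, these medians describe the selected genes only.

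The difference between the genotypes was tested directly. With edgeR's interaction of genotype and torin 1, 0 of 9616 genes passed (0%), and 140 had an unadjusted p under 0.05. With the replicate number as a term the count was also 0, with 635 genes at an unadjusted p under 0.05, or 846 where the term was set within each genotype. With DESeq2 there were 3, Ifrd1, Baiap2 and Fnip2, which are named after their values were seen. Their log2 changes were -0.22, 0.26 and 0.00 in Ctu1KO and -0.64, -0.12 and -0.42 in control. The half-width of a 95% interval of the difference was 0.30 on the log2 scale for the median gene. This holds for the fit without the replicate term and before adjustment. Differences below this size were not detectable for most genes, and larger ones can also fail after adjustment over 9616 genes. For Ccng2 the control libraries had 6.28, 5.05 and 5.41 CPM with DMSO and 50.8, 43.7 and 46.3 CPM with torin 1, and the difference was -0.16 (unadjusted p = 0.48). For Crebrf it was -0.02 and for Hbp1 0.01. Trib3 levels with DMSO lay lower in control than in Ctu1KO, a difference that was not tested. Trib3 had 11.5, 11.5 and 12.2 CPM in control with DMSO and 4.22, 4.82 and 4.95 CPM with torin 1, a log2 change of -1.33, and the difference was -0.42 (unadjusted p = 0.045). Ddit3 changed by -0.77 in Ctu1KO and -0.23 in control (unadjusted p = 0.0046), Vim by 0.75 and 0.38 (unadjusted p = 0.012), and Ak4 by -1.38 and -1.01 (unadjusted p = 0.0052). None of these differences passed the adjustment. List medians in control were 0.72 for growth brakes, 0.155 for autophagy, 0.143 for lysosomal genes, -0.27 for nucleolar genes and -0.23 for cholesterol synthesis.

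**Figure D3:**
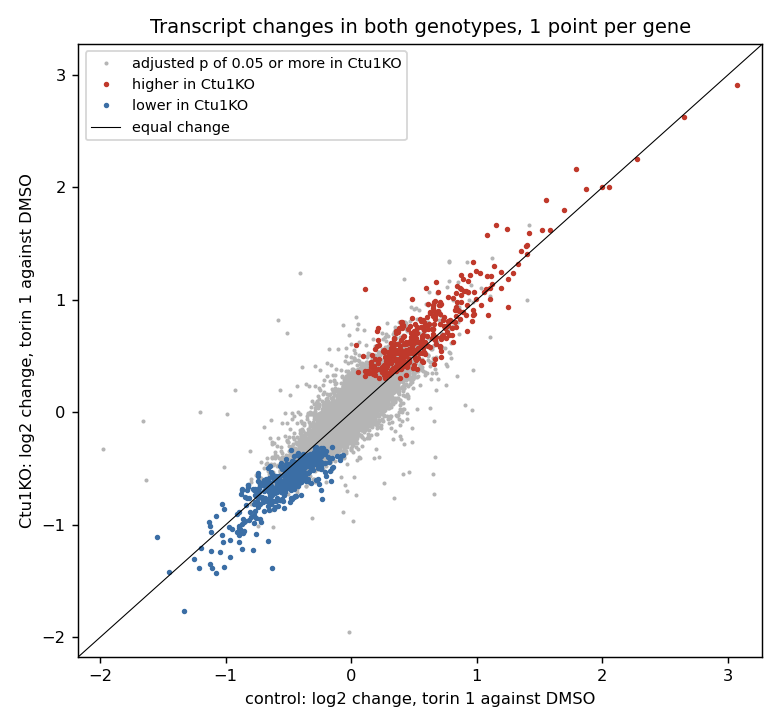
Each point is 1 gene, with its log2 transcript change with torin 1 in control on the x axis and in Ctu1KO on the y axis, and the line marks equal change. The 359 rising and 435 falling genes of Ctu1KO, in colour, lie on the same side of 0 in control, from Trib3 (-1.76 and -1.33) to Ccng2 (2.91 and 3.08).

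Ribosome footprints of the same lysates were compared next, to see which transcript changes appear in footprints. They were TMM-scaled, so they give the share of a gene among all footprints and do not measure total translation. Torin 1 changed footprints of 178 of 9848 genes (1.81%), of which 31 (0.315%) were higher and 147 (1.49%) lower. The higher calls depended on single libraries. They numbered 12 without DMSO replicate 1, 15 without DMSO replicate 2 or 3, 13 without torin 1 replicate 2, and 29 and 39 without torin 1 replicates 1 and 3. With the replicate term 89 were higher and 208 lower. Footprint libraries held between 4602092 and 15387951 counts, far fewer than the RNA libraries. Of the 794 transcripts called, 679 had footprints that moved in the same direction, and 30 were called in that direction. Footprints of 7 were called in the opposite direction. The median footprint change was 0.58 for rising and -0.41 for falling transcripts, against 0.01 for all genes. Among the 30 genes with the largest transcript changes, 29 had the same sign in footprints and 10 were called. Crebrf footprints went from 3.75, 2.23 and 5.73 CPM to 19.2, 37.7 and 36.4 CPM (log2 change 2.99, adjusted p = 0.0059), and those of Ccng2 from 2.69, 2.71 and 1.95 CPM to 11.7, 19.1 and 24.8 CPM. Of the 31 genes with more footprints, 25 also had a higher transcript. Pgp was the exception among the 30, with a footprint change of 0.03 beside a transcript change of -1.35, and the difference between both was not called (adjusted p = 0.42). Its footprints were 16.05, 28.32 and 21.29 CPM with DMSO and 13.02, 12.41 and 41.05 CPM with torin 1. Torin 1 replicates 1 and 2 thus lay below every DMSO library and replicate 3 above.

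Footprints moved apart from transcripts in 170 of 9615 genes (1.77%), 9 (0.0936%) higher and 161 (1.67%) lower relative to the transcript. Scaling by library totals gave 29 higher and 124 lower, and the replicate term 20 and 213. Without any 1 of the 3 RNA libraries with DMSO, or without torin 1 replicate 1 or 2 of the RNA, 3 were higher, and without torin 1 replicate 3 of the RNA 5. Without 1 footprint library the higher calls numbered 8 and 11 (DMSO and torin 1 replicate 1), 14 and 15 (replicate 2) or 19 and 13 (replicate 3), while the lower calls lay between 127 and 182 in all 12 of these fits. Of the 161, 77 were among the 78 ribosomal protein genes. The median footprint change was -1.59 for the large and -1.66 for the small subunit, beside transcript medians of 0.17 and 0.15. Rpl3 footprints went from 1644, 1637 and 1590 CPM to 423, 493 and 482 CPM, Eef2 footprints from 1277, 1490 and 1567 CPM to 231, 282 and 298 CPM. Both transcripts rose, so that transcript and footprint went in opposite directions. Pabpc1, the poly(A)-binding protein, had the largest fall in footprints among named genes (log2 change -2.91) with a transcript change of 0.29 (adjusted p = 0.062; 0.0042 with the replicate term). Rps27 and Rps18 footprints fell by 2.64 and 2.47, as did those of the copies Rps27rt (2.61) and Rps18-ps5 (2.52), which share sequence with their parent genes. Rpl29, Rps25 and Rps3 footprints changed by -1.37 (adjusted p = 0.055), -1.45 and -1.42. Vim had a higher transcript and lower footprints, from 4518, 4941 and 3799 CPM to 2409, 2535 and 2068 CPM. Among the 9 genes called higher relative to the transcript, a number that changes with these settings, the 5 with the largest difference were Metrn, Cdkl3, Mob2, Cep295 and Tgds, and of these Mob2 had a footprint call of its own (log2 change 1.37, adjusted p = 0.023). For 0 of the 30 leading transcripts was the difference between both readouts called, and the medians of growth brakes (0.64), autophagy (0.34), lysosomal (0.21) and nucleolar genes (-0.28) in footprints lay on the same side of 0 as in transcripts.

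Mitochondrially encoded genes had a footprint median of 0.62 with 0 called. For mt-Nd4, a subunit of complex I, footprints were 840, 632 and 564 CPM with DMSO and 2081, 716 and 423 CPM with torin 1. For mt-Atp6, a subunit of ATP synthase, they were 1132, 905 and 1112 CPM and 3079, 1020 and 958 CPM. In both genes torin 1 replicate 1 alone lay above the DMSO libraries.

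**Figure D4:**
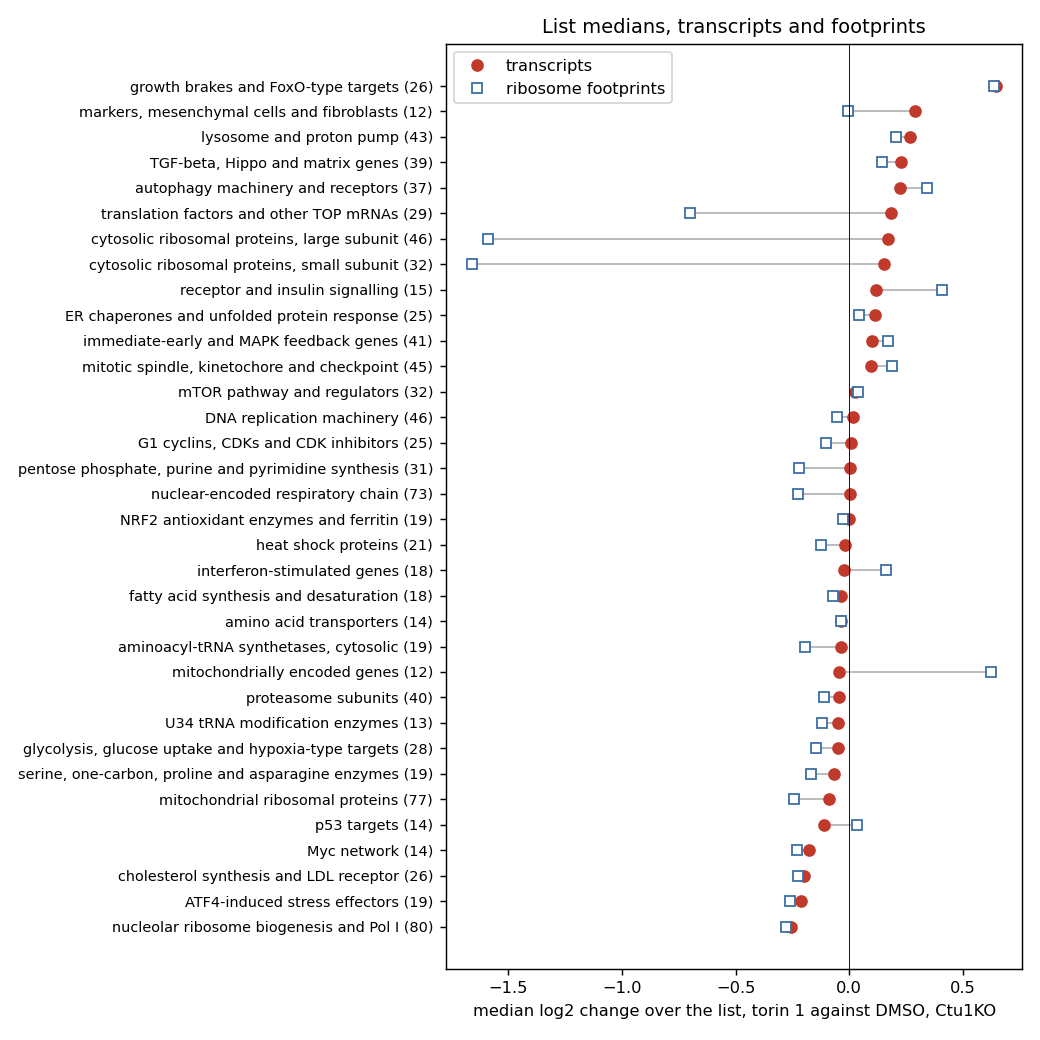
For each gene list with at least 10 genes tested (number in brackets), the filled circle is the median log2 change with torin 1 in Ctu1KO transcripts and the open square that in footprints (x axis). The largest gaps are those of ribosomal proteins, at 0.17 against -1.59 and 0.15 against -1.66, and translation factors lie at 0.18 against -0.70. Mitochondrially encoded genes lie at -0.05 against 0.62, with 0 of 12 called in footprints and the rise of mt-Nd4 and mt-Atp6 in torin 1 replicate 1 alone.

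Structural features of the changed transcripts were described with 1 GENCODE M21 transcript per gene, the longest coding one, which was found for 9438 of 9619 genes, 356 of the 359 rising and 433 of the 435 falling ones. Falling genes had fewer exons, with a median of 8 against 10 in rising genes and 10 in all. Their 3′ untranslated regions were longer, with medians of 1740 bases for falling, 1380 for rising and 1180 for all genes. Codons read by U34-modified transfer RNAs (AAA, CAA and GAA) made up a median of 5.81% of the coding sequence in rising, 6.04% in falling and 6.11% in all genes. Median GC content was 50.2%, 50.4% and 49.7%. When genes were divided into 5 bins by genomic span, the median log2 change was -0.01 in the shortest and 0.05 in the longest bin, and in control it was -0.01 and 0.05.

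The 359 rising and 435 falling genes were then summed over every RNA library of the series, as the mean log2(CPM + 1) of the first minus that of the second. The 6 libraries that chose the genes had -0.57, -0.56 and -0.64 with DMSO and 0.78, 0.66 and 0.64 with torin 1, which restates the choice. In libraries that took no part, control with DMSO had between -0.91 and -0.70 in its 6 libraries. Control libraries labelled torin 1 had between 0.25 and 0.44 in replicates 1 to 4 and -0.56 and -0.60 in replicates 5 and 6. The library labelled Ctu1KO torin 1 replicate 4 had 0.63, whereas replicates 5 and 6 had -0.26 and -0.23. In those 2 libraries Ccng2 had 23.7 and 29.0 CPM, scaled to library totals only, which is between the levels of replicates 1 to 3 with DMSO and with torin 1.

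**Figure D5:**
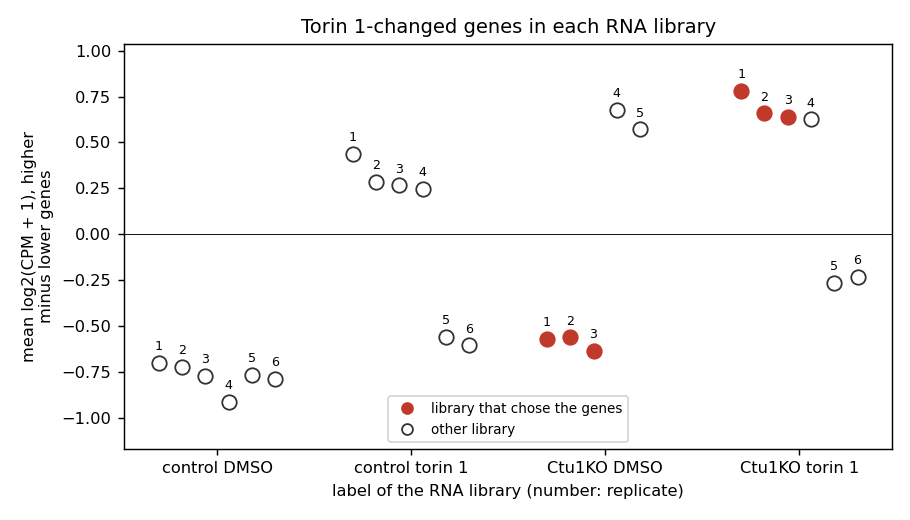
Each point is 1 RNA library, in columns by label and numbered by replicate, and the y axis is the mean log2(CPM + 1) of the 359 rising minus that of the 435 falling genes. Filled points are the 6 libraries that chose the genes, and the libraries labelled Ctu1KO DMSO replicates 4 and 5 (0.68 and 0.57) lie with the torin 1 libraries.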

How the data were processed

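RNA was sequenced as stranded poly(A) libraries in paired ends, and the authors deposited whole-number counts of reads per gene, for RNA and footprints in tables of 10420 (DMSO) and 9936 (torin 1) entries. Per the labels cutadapt 3.4, STAR and mm10 were used, and STAR 2.5.3a and UMI-tools 1.1.1 are named among the tools. For the footprints the study's methods name a human genome instead, although the deposited tables use mouse gene names, and these sources do not settle which genome gave the footprint counts. The DMSO and torin 1 tables list different genes, and 9857 symbols with 1 entry in both were kept. Genes with a mean under 10 counts were left out.

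Tests were edgeR 4.0.16 quasi-likelihood tests in R 4.3.3 with TMM scaling and Benjamini-Hochberg adjustment over all genes tested. Torin 1 was compared with DMSO in the 6 libraries. The genotypes were compared as an interaction over 12 RNA libraries, and footprints against transcripts as an interaction of library kind and treatment. DESeq2 1.42.0, other scalings and filters, a term for the replicate number and leaving out each library were the alternatives. CPM values are TMM-scaled, except those of Ctu1 with DMSO, the difference of rising and falling genes over every RNA library, and the CPM of replicates 4 to 6, which were scaled to the library's count total only (for the last of these and the difference, over the shared genes). An SE follows ±. The code was tested on simulated data.

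Deviations from the group means of same-numbered DMSO and torin 1 libraries correlated with r = 0.732, 0.647 and 0.775 (9619 genes), against -0.668 to 0.138 for other numbers. Deviations from a group mean sum to 0, so that positive values at the same number push the others below 0. Replicate 3 was also the deepest library of both groups, and what same-numbered libraries share was not tested. The numbers were taken to pair the libraries. This comes from the data, as the labels give numbers only.

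Named genes were, in each direction, the 15 with the largest log2 change among called genes whose mean count was 100 or more and whose groups did not overlap. In each list they were up to 4 called members per direction or, with none called, the 2 with the lowest p, and in each other test up to 5 genes per direction. Ctu1, Ctu2, Elongator subunits, Kti12, Rpl29, Rps25 and Rps3 were always included. Some of the genes that this rule names are not reported here. The members and lists were chosen with earlier results of these data known. Reads of genes with near-identical copies may have been split between them.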

Additional observations from a re-analysis of the deposited data

Results flagged for a closer look

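The libraries labelled Ctu1KO DMSO replicates 4 and 5 took no part in the main comparisons and entered only the setting with all replicates as labelled. The mean log2(CPM + 1) of the 359 rising genes minus that of the 435 falling genes was 0.678 and 0.572 in them. Ctu1KO DMSO replicates 1 to 3 had values between -0.636 and -0.561, and Ctu1KO torin 1 replicates 1 to 4 between 0.626 and 0.782. In these libraries Ccng2 had 47.8 and 53.1 CPM, Crebrf 28.9 and 30.1 CPM and Trib3 9.92 and 11 CPM. Both libraries go against their labels.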

How the results depend on the processing

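The number of transcripts changed in Ctu1KO cells was 794. It became 1609 with DESeq2, 3378 with the replicate block, 3491 with the block in replicates 1 and 2 only, and 0 with all replicates as labelled (edgeR, 466 at an unadjusted p under 0.05), a setting that holds the libraries that go against their labels. Without 1 library it ranged from 123 to 1123. Footprint calls numbered 178, and 393 with DESeq2 (141 higher and 252 lower), 788 with all replicates (343 higher and 445 lower) and 297 with the block. Genes whose footprints changed differently from transcripts numbered 170, and 314 with DESeq2 (62 higher and 252 lower) and 257 with all replicates (32 higher and 225 lower). The interaction with genotype gave 0 calls, and 3 with DESeq2. The setting with replicates 1 and 2 only in the block and the block within each genotype were chosen after seeing the data. Of 129 named genes, 1 changed direction: the log2 change of Cebpd was -0.009935 with all replicates as labelled. Of the 102 named genes that were called, 38 passed in every setting except that with all replicates, as did 97 of all 794. The causes were not tested. With 3 libraries a group, small changes of most genes were not detectable without the replicate term.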
